A study of Mus musculus with 4 samples.

Results

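Absorptive enterocytes, the columnar cells that line the villi of the small intestine, were followed through 10 of their genes: the lipid-binding proteins Fabp1, Fabp2 and Rbp2, the genes of lipoprotein assembly Apoa1, Apoa4, Apob and Mttp, and the brush border genes Sis, Alpi and Vil1. The genes were chosen by name for these roles, with earlier results of these data known. Their probe sets were chosen by the gene symbol in the platform annotation. Of the 10, 9 had a probe set, 16 probe sets in all. They stand among 18193 genes with a probe set that names 1 gene, of which 12645 had enough signal to be tested. No probe set naming Sis, the sucrase-isomaltase that splits dietary sugars, was found, and it is not analysed here. All 16 probe sets of the other 9 genes passed the filter on low signal.

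The RNA came from IgA+ cells of the small intestine of untreated female Balb/c mice aged 9 weeks, without any named mutation or transgene. Cells carrying surface CD11b (the integrin alpha M chain) were kept apart from cells without it, and 2 Affymetrix arrays were made of each fraction. Both fractions have 1 array labelled by the One-Cycle procedure, which started from 1 µg of RNA, and 1 labelled by the 3' IVT Express procedure, which started from 0.1 µg, so kit and RNA amount cannot be told apart. Whether the arrays of a fraction stem from different mice or sorts is not stated, so the p-values cover only the variation among these 4 arrays, which may be technical, and their number limits the precision. Enterocytes do not make IgA, so these genes are known as genes of a cell type other than the IgA-producing cells. Which of the sorted cells carried their RNA was not tested. In bulk RNA, fewer cells of a type and less RNA per cell cannot be told apart.

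Enterocytes take up fatty acids and monoglycerides at their brush border, carry them through the cytosol on small binding proteins, rebuild triglycerides in the endoplasmic reticulum and export them with apolipoproteins as chylomicrons. Brush border enzymes finish the digestion of sugars, peptides and phosphate esters on microvilli held up by actin bundles. Transcription factors of the HNF4, HNF1, CDX and GATA families are known regulators of these genes in the gut.

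Promoter sequences of all 10 genes were found in RefSeq (GRCm38.p6), and the 250 bases before each annotated start were searched on both strands for a short motif of each family. The motifs were CAAAGTCCA for HNF4, GTTAAT (an HNF1 half-site), TTTATG for CDX and AGATAA for GATA. They occurred in 0.384%, 6.43%, 10.8% and 9.99% of 32851 promoter windows of this length, and in 1, 2, 2 and 1 of the 10 genes. No match overlapped another. The 3 measured genes with a match are shown, each 5' to 3' on the strand of the gene with matches in capitals. The window of Fabp1 is chr6:71199629-71199878 (plus strand), that of Rbp2 chr9:98490287-98490536 (plus strand) and that of Alpi chr1:87101607-87101856 (minus strand).
Fabp1: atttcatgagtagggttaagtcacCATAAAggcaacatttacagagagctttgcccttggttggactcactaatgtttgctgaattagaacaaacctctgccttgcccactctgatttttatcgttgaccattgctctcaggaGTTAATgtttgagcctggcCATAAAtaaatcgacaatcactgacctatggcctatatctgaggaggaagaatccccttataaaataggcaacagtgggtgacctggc
Rbp2: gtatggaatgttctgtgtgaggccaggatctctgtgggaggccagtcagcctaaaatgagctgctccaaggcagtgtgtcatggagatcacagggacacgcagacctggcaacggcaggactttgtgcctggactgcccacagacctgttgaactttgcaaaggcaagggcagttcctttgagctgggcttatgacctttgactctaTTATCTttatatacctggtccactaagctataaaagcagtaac
Alpi: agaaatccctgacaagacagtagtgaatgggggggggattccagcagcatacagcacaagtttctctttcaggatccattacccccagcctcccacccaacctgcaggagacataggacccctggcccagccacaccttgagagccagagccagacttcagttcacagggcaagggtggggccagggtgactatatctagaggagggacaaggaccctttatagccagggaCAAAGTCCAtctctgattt
In Fabp1 an HNF1 half-site began 107 bases and CDX matches 226 and 88 bases before the start, the CDX matches on the opposite strand. In Rbp2 a GATA match on the opposite strand began 43 bases before the start, and in Alpi the HNF4 match began 19 bases before it. The windows of Fabp2, Apoa1, Apoa4, Apob, Mttp and Vil1 held none of these letters, which says nothing about the factors themselves. A match is a description of sequence, not evidence of binding.

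Enterocyte genes had tested signals above the filter level of 9.51 on all 4 arrays and tended to be lower in the CD11b-positive fraction, by a modest amount that was larger between the 2 arrays of one labelling kit than between those of the other. The median log2 difference of the 9 genes, CD11b-positive minus CD11b-negative, was -0.57 (1.48-fold lower), where the median of all 12645 genes was 0.0027. Within the kits it was -0.23 (One-Cycle) and -0.85 (3' IVT Express). Fabp1, the cytosolic fatty acid carrier shared by enterocytes and liver, and Vil1, the actin-bundling protein villin, had the largest differences. By limma without a term for the kit, 0 of the 9 genes passed an adjusted p of 0.05, as did 0% of all genes tested, while 2 of the 9 (Fabp1 and Vil1) and 3.52% of all genes were lower at an unadjusted p under 0.05. With the kit as a block, limma called the same 2 of the 9 lower, against 4.14% of all genes. That blocked fit has 1 residual degree of freedom and borrows most of its precision from other genes, so its p-values are likely to be too small.

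Signals below are quantile-normalized array intensities, and fold changes are on the scale of log2(signal + 3). Fabp1 stood at 614 and 819 without CD11b and at 437 and 370 with it, the One-Cycle array first. The fractions did not overlap, and the gap was 1.40-fold between the One-Cycle arrays and 2.21-fold between the 3' IVT Express arrays. Its log2 difference was -0.81 ± 0.22 (SE, n = 2 each; limma adjusted p = 0.607, and 0.000113 with the block). Fabp2, the intestinal fatty acid binding protein, measured 401 and 730 without CD11b and 429 and 392 with it. Here the CD11b-negative 3' IVT Express array stood above the other 3, which lay close together, and the fractions overlapped. Its One-Cycle difference was 0.10 and its 3' IVT Express difference -0.89 (limma adjusted p = 0.897, and 0.123 with the block). Rbp2, which carries retinol inside enterocytes, measured 155 and 57.5 without CD11b and 136 and 43.0 with it. It differed more between kits than between fractions, and its difference of -0.29 ± 0.63 (SE, n = 2 each) did not pass (limma adjusted p = 0.966, and 0.517 with the block).

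**Figure D1:**
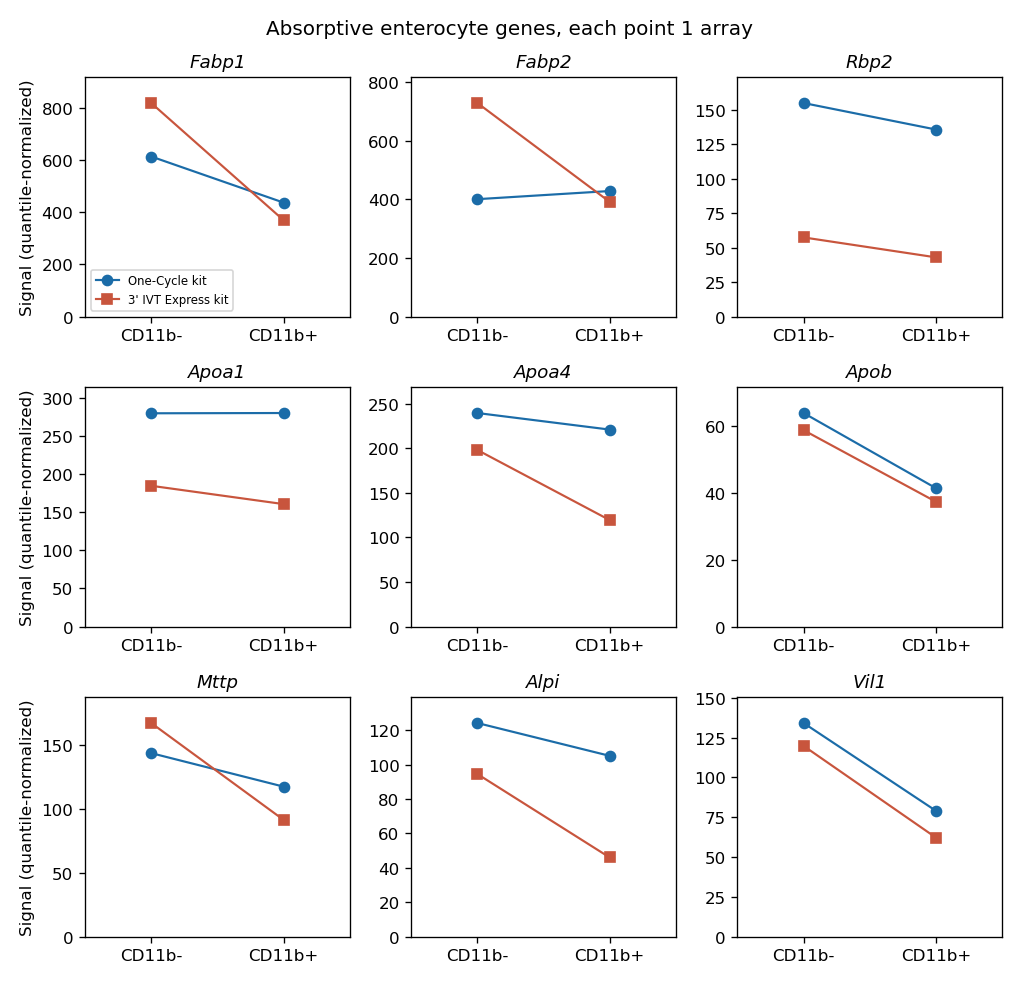
Quantile-normalized signal (vertical axis, from 0) of the 9 enterocyte genes in the CD11b-negative and CD11b-positive fractions, 1 point per array, with a line joining the 2 arrays of a labelling kit. In all 9 panels the lowest point is the CD11b-positive 3' IVT Express array, for example 46.0 for Alpi and 62.2 for Vil1.

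Among the genes of lipoprotein assembly, Mttp and Apob had fractions that did not overlap. Mttp, the transfer protein that loads lipid onto apolipoprotein B, measured 143 and 167 without CD11b and 117 and 91.3 with it. Its log2 difference was -0.57 ± 0.25 (SE, n = 2 each; limma adjusted p = 0.763, and 0.0660 with the block). Apob, the structural protein of chylomicrons, measured 63.8 and 58.7 against 41.4 and 37.3. The gap was nearly equal with the 2 kits (-0.59 and -0.61), and its adjusted p by limma was 0.780 (0.216 with the block). Apoa4, a chylomicron apolipoprotein of the villus, measured 240 and 198 against 221 and 120, which overlapped, with an adjusted p of 0.900 by limma (0.146 with the block). Apoa1, the main protein of high-density lipoprotein, measured 279.8 and 185 against 280.2 and 161. Its 2 One-Cycle arrays were nearly equal, and its log2 difference of -0.10 ± 0.34 (SE, n = 2 each) was the smallest of the 9 (limma adjusted p = 0.983, and 0.793 with the block). Apoa1 and Apoa4 lie in 1 cluster with Apoc3, an inhibitor of lipoprotein lipase, in the RefSeq gene table. Apoc3, named for that position and not by the rule for named genes, measured 3.38 and 34.7 without CD11b and 29.9 and 20.1 with it. The first of these signals was below the filter level. Apoc3 was thus higher in the CD11b-positive fraction with the One-Cycle kit and lower with the 3' IVT Express kit. The One-Cycle rise rests on that low signal, so a reversal between the kits cannot be read from it.

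Of the brush border genes, Vil1 measured 134 and 120 without CD11b and 79.0 and 62.2 with it. It was lower by a similar amount with each kit (-0.74 and -0.91), its fractions did not overlap, and its log2 difference was -0.83 ± 0.25 (SE, n = 2 each; limma adjusted p = 0.614, and 0.0100 with the block). Alpi, an intestinal alkaline phosphatase, measured 124 and 94.5 against 105 and 46.0. The CD11b-positive 3' IVT Express array was the low one, the One-Cycle arrays lay closer together (-0.23 against -0.99), and the adjusted p was 0.878 by limma (0.0993 with the block). Its mean difference of -0.61 was -0.045 without the CD11b-positive 3' IVT Express array and -1.20 without the CD11b-positive One-Cycle array.

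Across the 9 genes, 7 were lower in the CD11b-positive array of each kit, compared with 30.5% of all genes, and 4 (Fabp1, Apob, Vil1 and Mttp) had fractions that did not overlap, compared with 17.3%. With 2 arrays a side, an exact permutation test has a smallest p of 0.333, so none was run for single genes. With the 3' IVT Express kit all 9 were lower, where 48.1% of all genes were, and their differences ran from -1.14 (Fabp1) to -0.20 (Apoa1). With the One-Cycle kit 7 were lower, where 50.8% of all genes were, and the range was -0.74 (Vil1) to 0.10 (Fabp2). All 9 differences were more negative with the 3' IVT Express kit (49.1% of all genes), and all 9 genes had their lowest signal in the CD11b-positive 3' IVT Express array (21.5% of all genes). With 1 array per fraction and kit, the difference between the kits was not tested. Without that array the median of the 9 was -0.33, and without the CD11b-positive One-Cycle array it was -0.86. The 3' to 5' signal ratio of the beta-actin control probe sets was 1.90 and 1.84 without CD11b and 1.43 and 1.61 with it. For Gapdh the 2 fractions gave 0.685 and 0.704 without CD11b, and 0.682 and 0.710 with CD11b. The part of the beta-actin ratio in these differences was not tested.

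Levels also moved with the kit within a fraction. Rbp2 was 2.61-fold higher with the One-Cycle than with the 3' IVT Express kit in the CD11b-negative and 3.02-fold higher in the CD11b-positive fraction. Apoa1 was 1.51-fold and 1.73-fold higher with the One-Cycle kit. Apoa4 and Alpi also had lower signal in both 3' IVT Express arrays than in either One-Cycle array, making 4 of the 9 genes, compared with 21.4% of all genes. For 0 of the 9 were both 3' IVT Express arrays the higher ones (25% of all genes). Fabp1, Fabp2 and Mttp were higher with the 3' IVT Express kit in the CD11b-negative fraction only, by 1.33-fold, 1.81-fold and 1.16-fold.

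Several genes were read by more than 1 probe set, and these did not always give the same difference. Of the 16 probe sets, 15 were lower in the CD11b-positive fraction with the 3' IVT Express kit, 11 with the One-Cycle kit and 10 with both. The second probe set of Fabp1 gave 0.11 with the One-Cycle and -0.80 with the 3' IVT Express kit, while the one tested gave -0.49 and -1.14. The 3 untested probe sets of Apoa1, each marked as possibly cross-hybridising, gave means from -0.44 to -0.33, more negative than the -0.10 of the tested one. For Apoa4 the tested probe set carries the same mark, and the one without it, at signals of 26.8 to 46.0, gave a mean of 0.20. The second probe set of Apob, at 8.32 to 31.5, gave -0.42 with the One-Cycle and 1.29 with the 3' IVT Express kit. With the mean of its 2 probe sets Apob was at -0.083, and with only the second probe set Fabp1 was at -0.35. The 2 probe sets of Mttp gave means of -0.57 and -0.48.

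**Figure D2:**
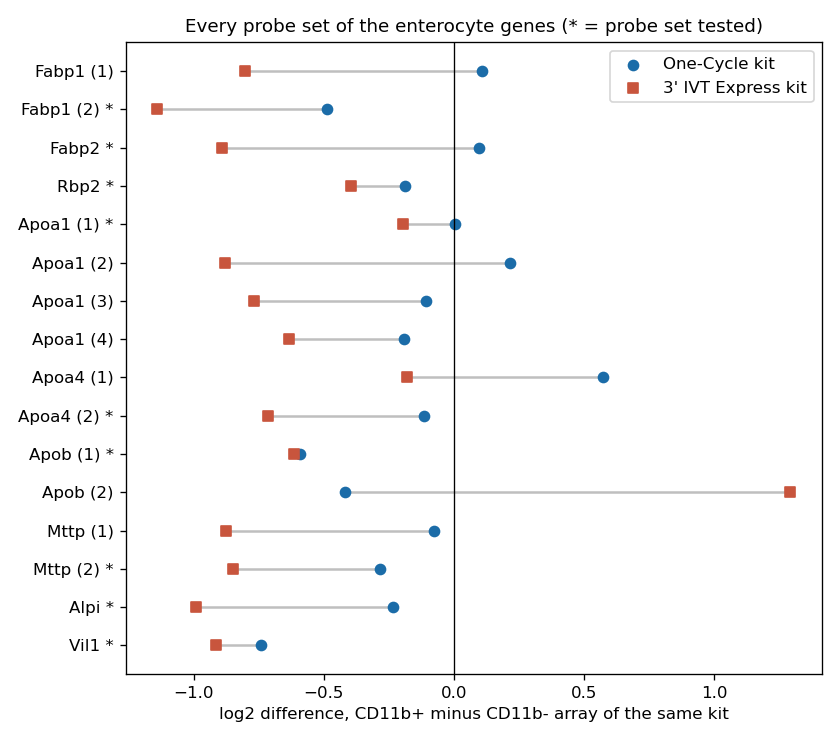
Log2 difference between the CD11b-positive and the CD11b-negative array of the same kit (horizontal axis) for each of the 16 probe sets of the 9 genes, with a grey line joining the 2 kits. The 3' IVT Express difference lies to the left of 0 for 15 probe sets, and the second Apob probe set, at 1.29, is the exception.

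The direction also rested on how the arrays were scaled, because the CD11b-positive arrays were brighter as deposited: their 2% trimmed means were 73.8 and 90.3, against 48.6 and 70.05 without CD11b. On the deposited signals the median of all genes was 0.51 with the One-Cycle and 0.33 with the 3' IVT Express kit. The 9 enterocyte genes then had medians of 0.34 and -0.48, and 2 of them were lower with the One-Cycle kit. Relative to the median of all genes, the 9 had a One-Cycle median from -0.23 to -0.17 and a 3' IVT Express median from -0.91 to -0.81 under all 5 scalings tried. On that relative scale all 9 were lower with the 3' IVT Express kit under each scaling, and 6 or 7 with the One-Cycle kit. A constant shift of an array cancels on that scale, so the deposited and the median-centred signals gave identical values by construction. Trimmed-mean scaling could differ from them little, mainly through the pseudocount. The 5 scalings are therefore not 5 independent checks.

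**Figure D3:**
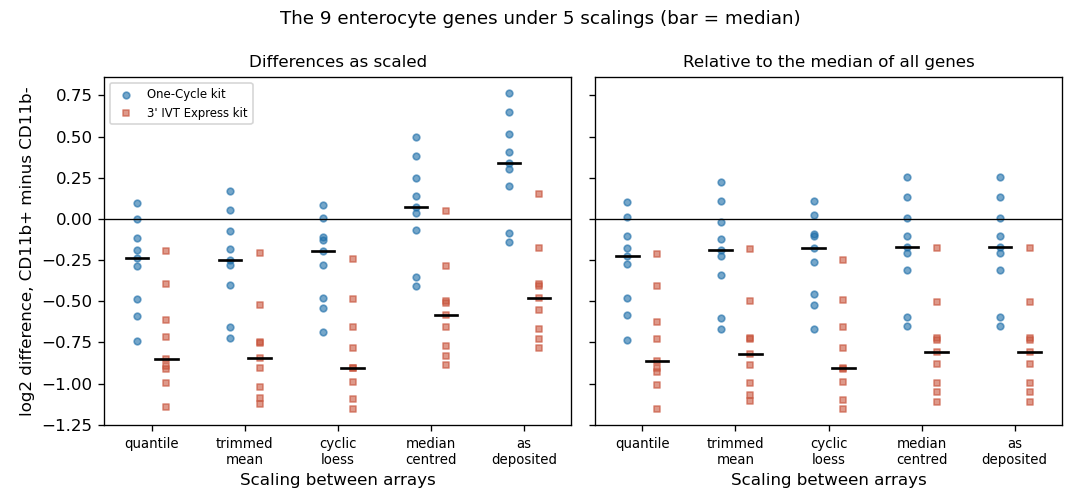
Log2 differences (vertical axis) of the 9 enterocyte genes within each kit under 5 scalings between arrays, as scaled on the left and relative to the median of all genes tested on the right, with a bar at the median. On the left the One-Cycle median moves from -0.23 to 0.34 on the deposited signals, and on the right it stays between -0.23 and -0.17. On the right the median-centred and the deposited values are identical by construction.

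Other genes of the absorptive cell were read from lists of known function, and 0 genes of any list passed limma without the block. Counts here come from the blocked fit, in which 4.14% of all genes were lower and 3.73% higher. Of 15 brush border enzymes tested, 4 fell and 0 rose, with medians of -0.26 (One-Cycle) and -0.73 (3' IVT Express), and all 15 were more negative with the 3' IVT Express kit. Those 4 were the peptidases Anpep (-1.34), Enpep (-0.74) and Mep1b (-0.79), and Maoa (-0.84), a mitochondrial amine oxidase placed on the list although it does not sit in the brush border. Without the CD11b-positive 3' IVT Express array these differences were -0.04 (Anpep), -0.40 (Enpep), -0.29 (Mep1b) and -0.53 (Maoa). Anpep was at -0.66, -2.64 and -2.01 without the CD11b-negative One-Cycle, the CD11b-positive One-Cycle and the CD11b-negative 3' IVT Express array, and Mep1b at -1.30 without the second of these. Of 18 microvillus genes 3 fell and 0 rose: Lgals4 (-1.29), a galectin of lipid rafts, the adhesion molecule Ceacam1 (-1.25) and Pls1 (-0.68), an actin bundler that works beside villin. Myo7b, a motor at the microvillus tip, was at -0.84 (adjusted p = 0.0732 with the block by limma). Lgals4 was at -0.78 without the CD11b-positive 3' IVT Express array and Pls1 at -0.37 without the CD11b-positive One-Cycle array. Ceacam1 was at -2.07 without the CD11b-negative One-Cycle array and -0.66 without probe sets of an x, s or a suffix.

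Of 31 genes of fat absorption and chylomicron assembly 3 fell and 1 rose. Dgat1, which makes triglyceride from diglyceride, fell by 0.75 on the log2 scale, Plin2, a lipid droplet coat protein, fell by 0.62, and Fabp6, the ileal bile acid carrier, fell by 1.43. Fabp6 measured 116 and 180 without CD11b and 72.6 and 36.4 with it. Surf4, a cargo receptor of the secretory pathway that plasma cells use too, rose by 0.38. Without the CD11b-positive 3' IVT Express array Fabp6 was at -0.93, Plin2 at -0.34 and Surf4 at 0.25. The median of this list was -0.09 with the One-Cycle and -0.42 with the 3' IVT Express kit.

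Among 23 nutrient and ion transporters 2 fell and 0 rose: Slc3a2 (-0.85), the heavy chain of amino acid exchangers, which plasma cells also express, and the water channel Aqp1 (-1.34). The transporters Slc7a7 (-0.70) and Slc26a6 (-0.85) did not pass (limma adjusted p = 0.0696 and 0.0919 with the block). Slc26a6 was at -0.24 without the CD11b-positive 3' IVT Express and -1.45 without the CD11b-positive One-Cycle array. Of 8 retinoid genes 1 fell, the alcohol dehydrogenase Adh1 (-0.60), which also stands on the list of proximal genes. Adh1 was at -0.10 without the CD11b-positive 3' IVT Express and -1.12 without the CD11b-positive One-Cycle array. Aldh1a1 (-0.75), Isx (-1.30) and Rdh10 (-0.47) did not pass (limma adjusted p = 0.0613, 0.154 and 0.338 with the block). Isx measured 25.0 and 20.6 without CD11b and 11.6 and 4.44 with it, the last below the filter level. It was at -0.80 without the CD11b-positive 3' IVT Express array. Lists of genes typical of the proximal and the distal small intestine each had 1 member that fell, of 8 and 5 tested: Adh1 and Fabp6. The iron reductase Cybrd1 (1.42) and the folate transporter Slc46a1 (-0.87) of the proximal list did not pass, nor did Lct (-0.14), and on the distal list Cubn (0.41), Guca2b (-0.15) and Nr1h4 (0.23) did not. Cybrd1 was at 2.45 without the CD11b-negative One-Cycle and 0.45 without the CD11b-negative 3' IVT Express array. It measured 17.1 and 2.24 without CD11b, the second below the filter level, and 29.1 and 20.5 with it. Cubn measured 6.06 and 37.7 without CD11b, the first below that level, and 13.3 and 37.0 with it.

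Of 13 transcription factors of enterocytes 3 fell and 0 rose, with medians of -0.76 (One-Cycle) and -0.60 (3' IVT Express). Hnf4a measured 169 and 87.3 without CD11b and 75.8 and 22.3 with it, without overlap. Its log2 difference was -1.48 ± 0.58 (SE, n = 2 each). The limma adjusted p of Hnf4a was 0.728, and 0.000120 with the block. Klf5, a factor of the crypt epithelium, was at -1.16 and Elf3, an epithelial ETS factor, at -1.14. Cdx2 was at -1.22 (limma adjusted p = 0.0519 with the block), with low signals of 41.3 and 36.9 without CD11b and 17.8 and 12.6 with it. Without the CD11b-positive 3' IVT Express array Hnf4a was at -0.64, Klf5 at -0.67 and Elf3 at -0.47, and without the CD11b-positive One-Cycle array Hnf4a was at -2.32 and Elf3 at -1.82. Elf3 was at -0.72 without the CD11b-negative One-Cycle array. Without probe sets of an x, s or a suffix Hnf4a was at -0.58 and Klf5 at -0.44. Of 10 villus tip genes 2 fell, Neat1 (-0.78) and Fos (-0.63), both also expressed widely outside the epithelium (Neat1 was at -0.09 with the mean of its probe sets), while Egfr (-0.57) and Nlrp6 (-0.79) did not pass. Nlrp6 was at -0.15 without the CD11b-positive 3' IVT Express, -1.42 without the CD11b-positive One-Cycle and -0.46 without the CD11b-negative One-Cycle array, and Egfr at -0.36 without the last of these.

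Markers of other cells were read in the same way, and their part in the enterocyte differences was not tested. The summed signal of the 9 enterocyte genes was 2155 and 2429 without CD11b and 1846 and 1321 with it. That of 11 pan-epithelial markers, such as keratins and claudins, was 3676 and 3904 against 1917 and 1325, and 10 of the 11 fell in the blocked fit, with medians of -0.96 (One-Cycle) and -1.56 (3' IVT Express). Of 10 goblet cell markers tested 7 fell, with medians of -1.32 and -1.42, and summed signals of 4146 and 2293 against 1655 and 837 over the 12 on the array. Of 7 Paneth cell markers 4 fell, with medians of -0.74 and -1.09. The One-Cycle medians of these lists were thus further from 0 than the -0.23 of the enterocyte genes, a difference between lists that was not tested. T cell and intraepithelial lymphocyte markers showed the other order of kits, -1.14 with the One-Cycle and -0.41 with the 3' IVT Express kit, and 5 of 9 fell. The summed signal of 11 plasma cell markers was 58383 to 61744 over the 4 arrays, with medians of -0.07 and -0.12. Of the 11, 1 fell and 1 rose in the blocked fit. With both kits 8 were lower (30.5% of all genes) and 1 was higher. Sdc1 was at -0.70 and -0.52, and Eaf2 at 0.42 and 0.41. The sum rests largely on markers such as Jchain and Igha, at 11010 to 12633, where quantile normalization leaves little room to differ. Macrophage markers had medians of 0.71 and 0.20 over 7 genes, of which 4 were higher and 2 lower with both kits and 0 passed the blocked fit. The 4 tuft cell markers tested had medians of -0.28 and 0.66, with 0 lower with both kits, and 0 passed. Enteroendocrine markers (medians -0.12 and -1.01, 1 of 7 fell), crypt stem cell markers (-0.53 and -0.55, 2 of 5 fell) and stromal and endothelial markers (-0.0073 and -0.08, 0 of 9 fell) complete the lists with genes tested beside the hepatocyte one.

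Some of the 9 genes are made in liver as well, and 2 hepatocyte markers are named here because only they passed the filter, a choice made after their values were seen. Of 10 hepatocyte markers on the array 8 were below the low-signal filter, and Alb, the albumin gene, measured 9.30 to 13.0 over the 4 arrays. Cps1, which the gut epithelium also expresses, measured 676 and 428 without CD11b and 235 and 97.3 with it. Both red cell markers on the array were below the filter.

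**Figure D4:**
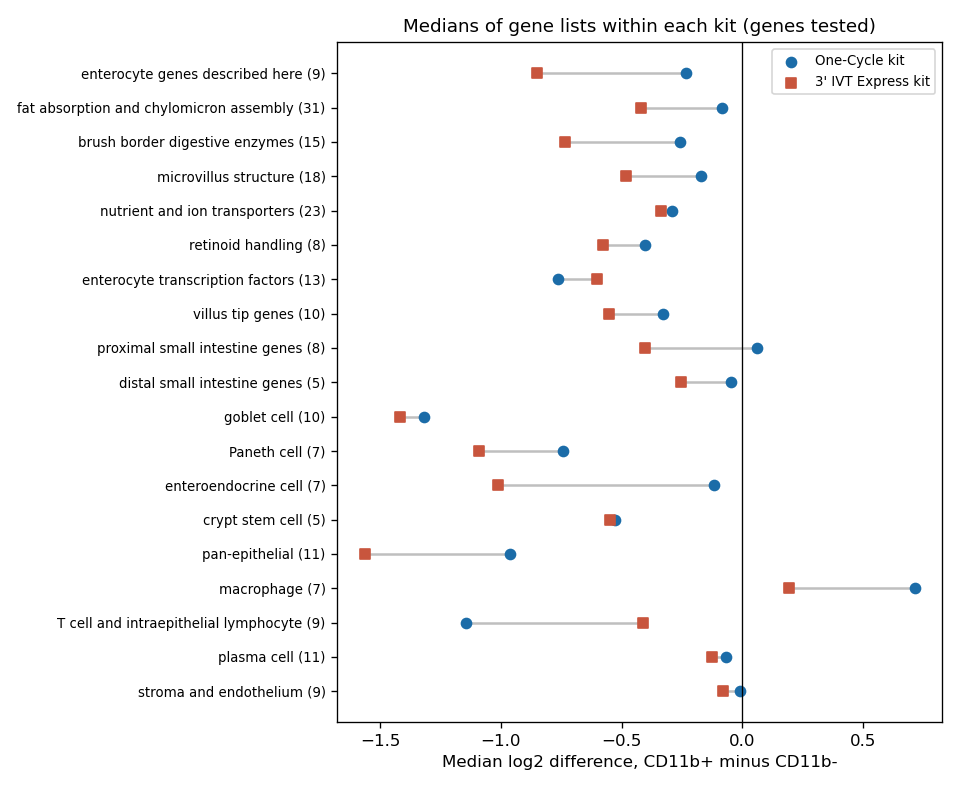
Median log2 difference between the fractions (horizontal axis) within each kit for the 9 enterocyte genes and for each list with at least 5 genes tested, whose number stands in parentheses. The enterocyte genes lie at -0.23 and -0.85, the goblet cell markers at -1.32 and -1.42, and the plasma cell markers at -0.07 and -0.12.

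The mean profile of the 9 genes over the 4 arrays, centred on its own mean, was 0.34 and 0.18 without CD11b and 0.05 and -0.57 with it, One-Cycle first. The 8 other genes nearest to it by Euclidean distance were Terb2, Nlrc3, Abcg5, Myo15b, Lor, Slc7a9, Hgd and Sel1l3, at distances of 0.0820 to 0.115. Each lay nearer than any of the 9 genes themselves, whose distances ran from 0.218 (Apoa4) to 1.13 (Rbp2). Abcg5, a sterol exporter, and Slc7a9, an amino acid transporter, also stand on the lists above. Abcg5 measured 46.6 and 42.6 against 36.3 and 25.0, and Slc7a9 67.1 and 54.5 against 50.9 and 31.0. Terb2, the nearest, and Hgd were below the filter level on the CD11b-positive 3' IVT Express array (7.89 and 7.91). None of the 8 passed the blocked fit (limma adjusted p from 0.203 to 0.719 with the block). Only 4 arrays define this likeness, and many genes can match a profile of 4 points.

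The sort itself was visible in Itgam, the gene of CD11b, which measured 28.3 and 15.8 without CD11b and 189 and 109 with it.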

How the data were processed

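Per the submitters' processing notes, the authors made the deposited values, 1 intensity per probe set on a linear scale, with MAS5 and Affymetrix Expression Console; no source used here gives versions, scaling target or build. The deposited intensity values were not scaled to a common level, so they were quantile-normalized over 45037 probe sets, leaving out 64 controls. Before log2 a pseudocount of 3 was added (the signals' 20th percentile). Probe sets with a mean log2 value above the 40th percentile (a signal of about 9.51) were kept, with the brightest per gene among the 34945 that name 1 gene in the platform annotation. For 12645 genes a limma model (version 3.58.1, R 4.3.3) was fitted with lmFit and trended eBayes, without and with the labelling kit as a block; p-values are 2-sided and Benjamini-Hochberg adjusted over all genes. Deviations of same-kit arrays from the fraction means correlated across genes (r = 0.387). The script was tested on simulated data. Members and lists were chosen with earlier results of these data known. Named genes were all members, the 4 with the smallest blocked p per list of the absorptive cell, the 8 nearest profiles and Itgam; Apoc3, Alb and Cps1 were added after their values were seen. Alternatives varied the pseudocount (1 and 12), scaling, low-signal filter, probe set rule, trend and block, and left out each array. An alternative probe set rule dropped all probe sets with an x, s or a suffix, not only those marked as possibly cross-hybridising. It left Apoa1 without a probe set.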

Additional observations from a re-analysis of the deposited data

Results flagged for a closer look

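For 2 enterocyte genes, after quantile normalization, the CD11b-positive array was higher with one kit and lower with the other. Fabp2 was at 0.10 with the One-Cycle and -0.89 with the 3' IVT Express kit. Apoa1 was at 0.0018 and -0.20. Each kit holds 1 array per fraction, so these differences between kits were not tested.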

How the results depend on the processing

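With 2 arrays per fraction, small changes cannot be told from array noise, and genes near the low-signal filter are measured poorly. With a replicate block for the labelling kit, 996 genes were called in all and 2 of the 9 enterocyte genes were called lower, against 0 and 0. The count lower with both kits was 2 on the deposited signals and 3 after median centring, against 7 (8.9% and 16.5% of all genes, against 30.5%), and that without overlap was 2 under each, against 4 (4.71% and 8.78% of all genes, against 17.3%). With the mean of all probe sets these counts were 6 and 3 (28.6% and 16.6% of all genes). Without probe sets of an x, s or a suffix, and so without Apoa1, they were 5 and 3 (29.7% and 16.7%). The median of the 9 was -0.12 on the deposited signals and kept its sign under every alternative run. Leaving out 1 array gave 0 to 24 genes called (24 without the CD11b-positive One-Cycle array), 4 to 9 enterocyte genes without overlap (9 without that array, where 30.4% of all genes were lower without overlap, and 7 without the CD11b-negative 3' IVT Express array, where 36.1% were) and a median from -0.86 to -0.33. It leaves the kits uneven between the fractions, and the lone array is assumed to vary like the others. On the deposited signals Fabp2 (0.14), Apoa1 (0.40), Apoa4 (0.062) and Rbp2 (0.11) turned higher, as did Apoa1 after median centring (0.21). Without probe sets of an x, s or a suffix Apoa4 was at 0.20. On leaving out 1 array Fabp2 ran from -0.84 to 0.030 (without the CD11b-negative 3' IVT Express array) and Apoa1 from -0.85 to 0.20 (without the CD11b-negative One-Cycle array), with 0.015 without the CD11b-positive 3' IVT Express array. Without this last array Apoa4 was at 0.022, its highest (lowest -0.86), and Rbp2, otherwise as low as -1.10, at 0.48; Rbp2 was at 0.41 without the CD11b-negative One-Cycle array. Fabp1, Apob, Alpi, Vil1 and Mttp kept their sign under every alternative run, but some came near 0. Alpi was at -0.045 without the CD11b-positive 3' IVT Express array. Apob was at -0.083 with the mean of its probe sets and Mttp at -0.12 on the deposited signals. Fabp1 was at -0.35 without probe sets of an x, s or a suffix. Among the other named genes, tried after seeing the data, only the following changed sign. Without probe sets of an x, s or a suffix they were Rdh10 (0.24), Egfr (0.71) and Cubn (-0.23). On the deposited signals they were Lct (0.16) and Guca2b (0.24, and 0.048 after median centring). On leaving out 1 array they were Lct (-0.30 to 0.018), Cubn (-0.69 to 1.48), Guca2b (-0.38 to 0.076) and Nr1h4 (-0.15 to 0.62). The cause of these reversals was not tested.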
